A study of Mus musculus with 2 samples.

Results

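The imprinted growth genes described here were 10 genes chosen by symbol from the gene table of sorted Pdpn+ mouse kidney cells: *H19*, *Meg3*, *Dlk1*, *Peg3*, *Cdkn1c*, *Plagl1*, *Grb10*, *Mest*, *Ndn* and *Sgce*. All 10 were found among the 55471 genes of the table, and 9 of them reached 20 counts in at least 1 library, the minimum used for a comparison. *Dlk1* was the gene that did not. The rule used the symbols and no measured value, but the list was chosen with earlier results of these data known.

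Whole-population RNA-Seq was run on EpCAM-CD45-Nephrin-Pdpn+ cells, which the study calls dysplastic lymphatic endothelial cells (dysLECs) in VhlhKO kidneys, with 1 pooled library from VhlhKO and 1 pooled library from Ctrl. VhlhKO mice were Hoxb7-Cre-GFP/+ with loxP sites on both *Vhlh* alleles, so that Cre under the *Hoxb7* promoter deleted exon 1 of *Vhlh* in the tubule epithelium and not by design in the sorted cells. Ctrl mice were Hoxb7-Cre-GFP/+ littermates according to the methods, whereas the sample labels of Ctrl name Hoxb7-Cre-GFP in 1 entry and the loxP alleles without Cre in another. Both groups were untreated male C57BL/6J mice, aged 12 weeks by the label, 8 to 12 weeks by the label's protocol and 10 to 12 weeks by the methods. The methods give 6 animals per pool in the section on sorting and 3 mice in the section on sequencing, and the sorted cells of both groups were kept for hours in endothelial cell medium before RNA was extracted. Without a replicate of either genotype no difference could be tested, and every ratio below compares these libraries and not the genotypes.

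An imprinted gene is transcribed mainly from the copy inherited from 1 parent. The germ cells of the parents left different DNA methylation at a control region of the gene or of its cluster. Imprinted genes lie in clusters in which a single control region often sets the expression of several protein-coding and noncoding genes, and many of them raise or restrain growth of the fetus, placenta and mesenchymal tissues. *H19*, *Meg3*, *Cdkn1c* and *Grb10* are known in mouse as expressed mainly from the maternal copy (*Grb10* from the paternal copy in neurons), and *Dlk1*, *Peg3*, *Plagl1*, *Mest*, *Ndn* and *Sgce* from the paternal copy. Counts of whole genes do not separate the parental copies, so the data speak of the summed level only.

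The genes lie on 5 chromosomes (GENCODE M21, build GRCm38). Chromosome 7 holds 4 of them: *Peg3* at chr7:6703892-6730431 on the minus strand, *Ndn* at chr7:62346569-62350262 on the plus strand, and on the minus strand *H19* at chr7:142575529-142578143 and *Cdkn1c* at chr7:143458339-143461050, whose starts are 883 kb apart. *Dlk1* at chr12:109452823-109463336 and *Meg3* at chr12:109541001-109571726 are both on the plus strand with starts 88.2 kb apart. *Sgce* lies at chr6:4674350-4747207 on the minus strand, *Mest* at chr6:30723547-30748465 on the plus strand, *Plagl1* at chr10:13060504-13131694 on the plus strand and *Grb10* at chr11:11930508-12038683 on the minus strand. *H19* and *Meg3* are annotated as long noncoding RNAs and the other 8 genes as protein-coding.

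The stretches upstream of *Meg3*, *Mest* and *Peg3* are shown because the genes with the lowest ratios, or their whole clusters, lie beside them, and because methylated CpG sites near such starts carry imprints. The sequences are from RefSeq (GRCm38.p6), written 5′ to 3′ on the strand of the gene, with each CpG in capitals. The first covers the 250 bases before a RefSeq start of *Meg3* (chr12:109540746-109540995, plus strand) and holds 10 CpG sites. The second covers the 250 bases before a RefSeq start of *Mest* (chr6:30737800-30738049, plus strand) and holds 14. The last is the 146 bases between the exons of *Peg3* and of its divergent neighbour *Usp29* (chr7:6730432-6730577, minus strand) and holds 5.
Meg3: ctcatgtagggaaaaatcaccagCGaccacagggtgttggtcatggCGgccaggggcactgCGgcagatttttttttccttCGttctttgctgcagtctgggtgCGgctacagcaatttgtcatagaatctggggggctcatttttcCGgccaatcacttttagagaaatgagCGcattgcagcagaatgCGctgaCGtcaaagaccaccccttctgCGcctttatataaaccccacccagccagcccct
Mest: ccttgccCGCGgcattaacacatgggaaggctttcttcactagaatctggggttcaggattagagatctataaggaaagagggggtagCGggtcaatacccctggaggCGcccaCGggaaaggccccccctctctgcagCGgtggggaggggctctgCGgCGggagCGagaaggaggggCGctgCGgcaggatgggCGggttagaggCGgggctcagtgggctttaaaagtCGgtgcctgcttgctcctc
Peg3: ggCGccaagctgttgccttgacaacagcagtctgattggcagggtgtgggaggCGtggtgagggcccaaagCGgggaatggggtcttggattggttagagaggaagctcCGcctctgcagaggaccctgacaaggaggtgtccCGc

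RefSeq windows of 250 bases upstream of a start were found for 7 of the 10 genes. Over 32851 such windows of all genes the median was 6 CpG sites. The *Grb10* window richest in CpG held 40, a number that 1.31% of all windows reached. The richest windows held 19 for *Plagl1*, 14 for *Mest*, 10 for *Meg3*, 8 each for *Dlk1* and *Peg3*, and 5 for *Ndn*. Exons of GENCODE M21 covered all 250 bases of the *Ndn* window, 141 of the *Plagl1* window and 104 of the *Peg3* window. Only the form ACGTG of the hypoxia response element core was searched, on both strands, because *Vhlh* loss in the tubule stabilises hypoxia-inducible factors there. It occurred in the *Dlk1* window and in the *Plagl1* window, where 2 overlapping matches on opposite strands formed 1 palindrome, and in 16.6% of all windows. The motif GGGGCCCC occurred in the *Peg3* window, in the part not printed, and in 0.889% of all windows. A match describes the letters only.

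*H19*, *Mest* and *Meg3* also carry microRNAs within their bounds, 7 mature forms with 7 different seeds. Those of *H19* and *Mest* are shown with the seed, bases 2 to 8, in capitals, since each sits inside a host whose own RNA was measured.
mmu-miR-675-5p: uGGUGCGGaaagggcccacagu
mmu-miR-675-3p: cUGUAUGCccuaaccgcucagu
mmu-miR-335-5p: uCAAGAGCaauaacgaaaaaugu
mmu-miR-335-3p: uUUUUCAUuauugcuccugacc
The hairpins *Mir675*, *Mir335* and *Mir770* had 0 counts in VhlhKO and 0 in Ctrl, each 0 allowing up to 3 counts. The poly(A)-selected libraries do not capture mature microRNAs, so the host RNA is what the data describe.

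The libraries held 34465017 counts in VhlhKO and 31817115 in Ctrl, with 3.97% and 4.01% of them on mitochondrial genes. *Vhl*, which was not deleted by design in these cells, had 975 counts in VhlhKO and 938 in Ctrl. Counts of the whole gene do not show a loss of exon 1 alone. *Hoxb7*, whose promoter drives the Cre, had 2008 counts in VhlhKO and 1754 in Ctrl. Whether Cre acted in the sorted cells was not tested. Markers of the labelled lymphatic endothelial cells were uneven: *Pdpn* had 132 TPM in VhlhKO and 114 TPM in Ctrl, *Flt4* 11.3 and 9.70 TPM, *Prox1* 1.76 and 1.93 TPM, *Lyve1* 4.56 and 0.385 TPM, *Cdh5* 2.60 and 2.54 TPM and *Pecam1* 1.10 and 0.993 TPM, while *Mmrn1* and *Ccl21a* had no counts. Smooth muscle markers ranged from *Myh11* at 5.13 TPM in VhlhKO and 6.42 TPM in Ctrl to *Tagln* at 7325 TPM in VhlhKO and 8224 TPM in Ctrl. Fibroblast and pericyte markers summed to 381 TPM in VhlhKO and 206 TPM in Ctrl. Of the 11 measured 6, *Col1a1*, *Col1a2*, *Col3a1*, *Mfap5*, *Pdgfra* and *Postn*, passed 2-fold upward, beside 1.71% of all measured genes. *Lyve1* and *Itga9* among the lymphatic, *Des* among the smooth muscle, *Msln* among the mesothelial and *Podxl* among the podocyte markers did so too. Of the 11 fibroblast and pericyte markers only *Cspg4* was lower in VhlhKO, with 69.9 TPM in VhlhKO and 84.4 TPM in Ctrl. Of 10 macrophage and monocyte markers 1, *Lyz2* (159 TPM in VhlhKO, 44.6 TPM in Ctrl), was at least 2-fold higher. With *Lyz2* included, the 10 summed to 303 TPM in VhlhKO and 153 TPM in Ctrl. A total of 8 had a ratio above 1. The other 2, *Csf1r* (5.03 TPM in VhlhKO, 5.98 TPM in Ctrl) and *Cd14* (39.9 and 44.6 TPM), had a ratio below 1. Of 6 measured proximal tubule markers 4 were at least 2-fold lower in VhlhKO (summed TPM 11.8 in VhlhKO, 17.0 in Ctrl), namely *Slc27a2*, *Slc5a2*, *Slc34a1* and *Fbp1*, the last 2 at 0 counts there. The gate genes had 155 counts in VhlhKO and 69 in Ctrl for *Epcam*, 24 and 12 for *Ptprc*, and 44 and 77 for *Nphs1*. The part of these shifts in the values of the imprinted genes was not tested, and in bulk libraries fewer cells of a type and less RNA per cell cannot be told apart.

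Within each library the imprinted genes spanned about 3 orders of magnitude per length (TPM, the authors' values of counts scaled by gene length and library total). *Peg3* stood highest with 289 TPM in VhlhKO and 379 TPM in Ctrl, rank 455 and rank 316 of all genes in those libraries. *Grb10* followed with 131 TPM in VhlhKO and 148 TPM in Ctrl, then *Ndn* with 99.2 and 95.2 TPM and *Plagl1* with 30.9 and 25.0 TPM. These 4 genes kept the same order in both libraries. Below them the order differed: in VhlhKO it ran *Mest* (7.12 TPM), *Sgce* (6.60 TPM), *Meg3* (4.22 TPM) and *Cdkn1c* (4.08 TPM), whereas in Ctrl it ran *Mest* (13.8 TPM), *Meg3* (7.22 TPM), *Cdkn1c* (6.62 TPM) and *Sgce* (6.11 TPM). *H19* had 2.20 TPM in VhlhKO and 2.33 TPM in Ctrl, and *Dlk1* was lowest with 0.313 and 0.219 TPM. With 1 library per genotype there is no spread over samples by which neighbours in this order could be separated.

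**Figure D1:**
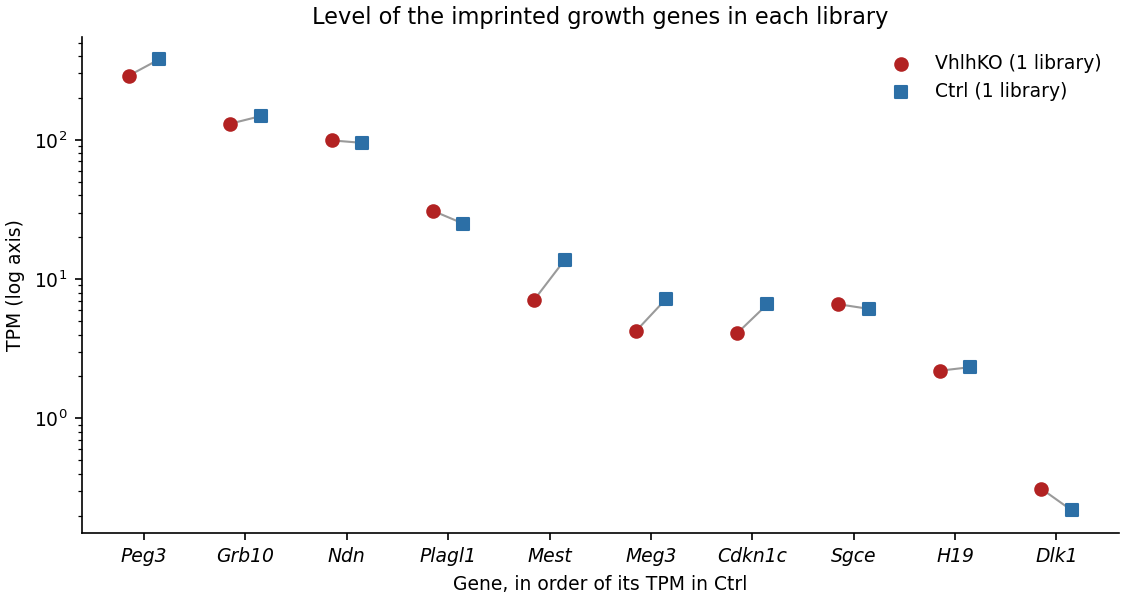
TPM (log axis) of the 10 imprinted growth genes in the VhlhKO library (red circles) and the Ctrl library (blue squares), ordered by the level in Ctrl, with a grey line joining the values of a gene. *Peg3* stands at 289 TPM in VhlhKO and 379 TPM in Ctrl and *Dlk1* at 0.313 and 0.219 TPM, and the steepest lines are those of *Mest*, *Meg3* and *Cdkn1c*, each lower in VhlhKO.

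To compare the libraries, counts were scaled by the trimmed mean of M-values (TMM), 0.5 CPM (counts per library of a fixed size) was added to both libraries and the log2 of VhlhKO over Ctrl was formed. A gene was called higher or lower when it was past 2-fold on this scale. None of the 9 measured imprinted genes passed in either direction, beside 1.71% of all 15275 measured genes that were higher and 0.524% that were lower. At 1.5-fold 0 of the 9 were higher and 3 were lower, *Mest*, *Meg3* and *Cdkn1c*, beside 4.75% of all genes higher and 1.82% lower. *Cdkn1c* passed 1.5-fold narrowly, at a log2 ratio of -0.59, and did not pass with DESeq2 size factors (-0.58) or with 5 CPM added (-0.26), which left 2 lower. Their median log2 ratio was -0.17, against -0.00065 over all measured genes.

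The scaled count ratio was also given a 95% exact (Clopper-Pearson) interval, which covers counting error only, since PCR copies are not independent molecules and the spread between mice was not measured. It left out 1 for 6 of the 9, beside 36.3% of all genes. It lay below 1 for 5 of them, *Mest*, *Meg3*, *Cdkn1c*, *Peg3* and *Grb10*, beside 17.3% of all genes, and above 1 for *Plagl1* alone, as it did for 2907 of the 15275 genes. It held 1 for *H19*, *Ndn* and *Sgce*. The interval narrows as counts rise, so at high counts it can leave out 1 for a small difference. For *Grb10* it did so at a ratio of 0.886, with 11417 counts in VhlhKO and 11972 in Ctrl. The genes behind these percentages were not matched for counts, so 6 of the 9 cannot be read as an excess over them. Of the 4 maternally expressed genes all 4 had a ratio below 1, beside 50.2% of all measured genes, with a median log2 ratio of -0.38. Of the 5 measured paternally expressed genes 2 had a ratio below 1, with a median of 0.06. The parental classes hold few genes and were not compared by a test. Other maternally expressed genes named below lay on both sides of 1, *Igf2r* at 1.09 and *Slc22a18* at 1.36, *Rian* at 0.586 and *Zim1* at 0.655.

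**Figure D2:**
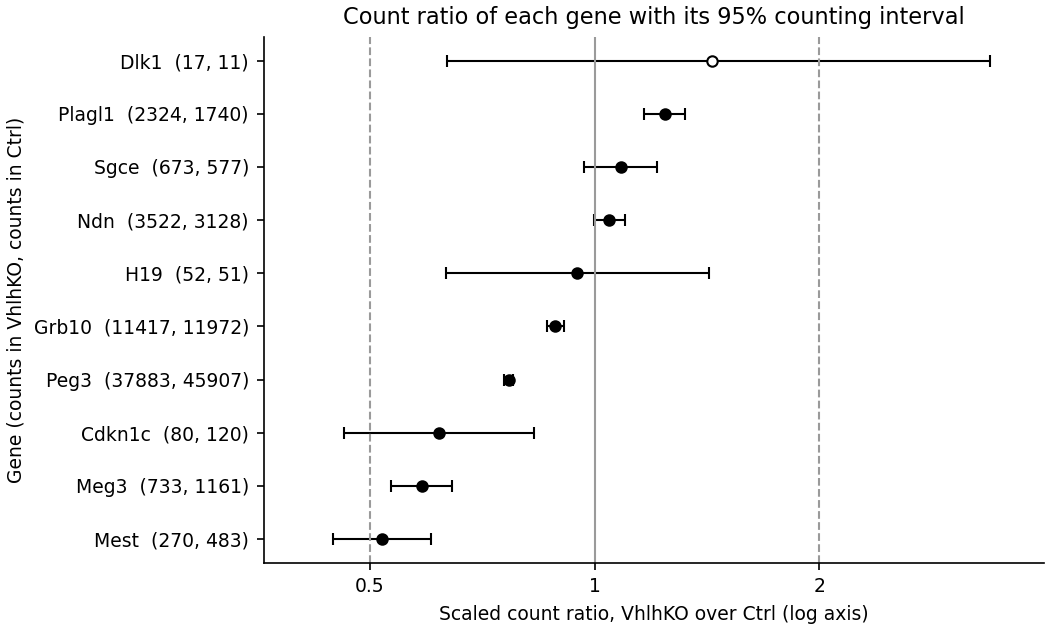
Scaled count ratio of VhlhKO over Ctrl (log axis) for each gene, with its 95% counting interval as a bar and the counts of VhlhKO and Ctrl beside its name. The solid line marks equal levels and the dashed lines 2-fold, and the filled points, which reached 20 counts, lie between 0.519 (*Mest*) and 1.24 (*Plagl1*), while the open point (*Dlk1*) did not reach them.

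**Figure D3:**
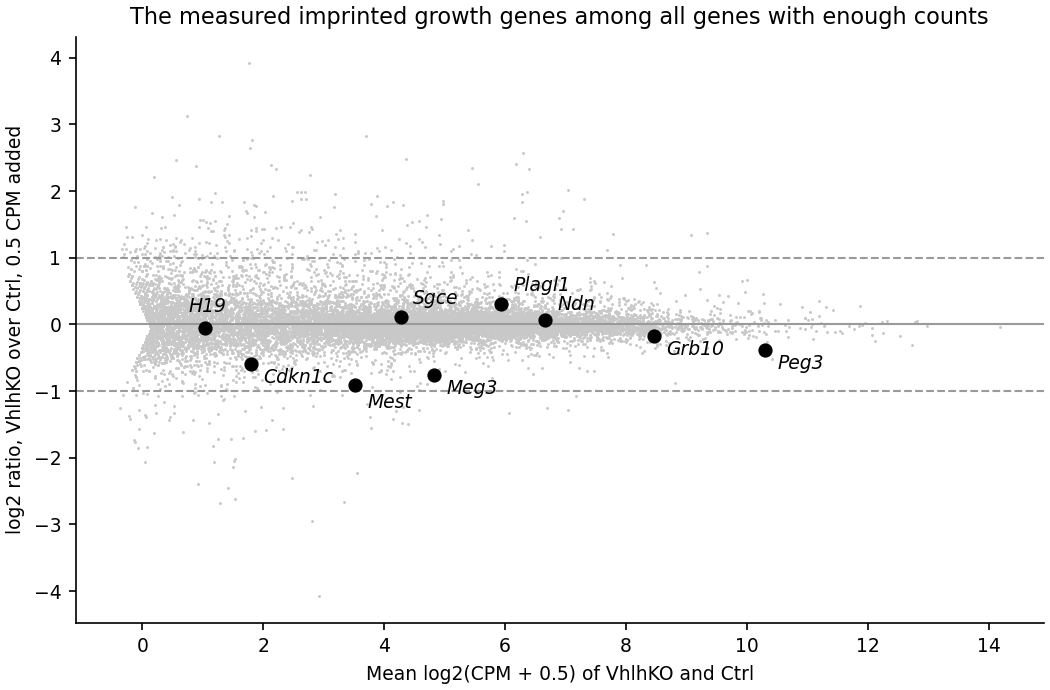
Log2 ratio of VhlhKO over Ctrl against the mean log2(CPM + 0.5) of both libraries for the 15275 measured genes (grey) and the 9 measured imprinted growth genes (black, named). All 9 lie between the dashed lines of 2-fold, with *Mest* (-0.90) and *Meg3* (-0.76) nearest the lower one and *Plagl1* (0.31) the highest.

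Among the noncoding RNAs, *Meg3*, a nuclear RNA that in mouse gives rise to the maternal transcripts of the *Dlk1*-*Dio3* cluster, had 733 counts in VhlhKO and 1161 in Ctrl. Its ratio was 0.587 (0.534 to 0.644). The next RNA of the same cluster, *Rian*, which carries small nucleolar RNAs and microRNAs, had 415 counts in VhlhKO and 658 in Ctrl, or a ratio of 0.586 (0.517 to 0.664). *Meg3* and *Rian* were thus lower in VhlhKO by nearly the same factor, and their TPM stood in a ratio of 3.12 in VhlhKO and 3.12 in Ctrl. *Mirg*, the microRNA host farther along, had only 18 counts in VhlhKO and 20 in Ctrl, and its interval (0.417 to 1.66) holds both 1 and the value of *Meg3*. A total of 6.79% of the exonic bases of *Meg3* are shared with *Gm26906* on the opposite strand.

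The protein-coding genes of this cluster were at low counts or near equal levels. *Dlk1*, a transmembrane protein with EGF repeats related to the Notch ligands, had 17 counts in VhlhKO and 11 in Ctrl, below the minimum, with an interval of 0.634 to 3.39. *Rtl1*, a gene derived from a retrotransposon, had 0 counts in VhlhKO and 2 in Ctrl, and *Begain* had 8 and 16. *Dio3*, the deiodinase that inactivates thyroid hormone, had 93 counts in VhlhKO and 95 in Ctrl (0.910, 0.676 to 1.22). The flanking genes *Wdr25* (159 counts in VhlhKO, 128 in Ctrl) and *Wars*, a tRNA synthetase gene (3828 and 3733 counts), had ratios of 1.15 and 0.953. The 2 RNAs with the low ratios, *Meg3* and *Rian*, are both transcribed from the maternal copy. Expression per length of *Meg3* was 13.5 times that of *Dlk1* in VhlhKO and 33.0 times in Ctrl, quotients that rest on the few counts of *Dlk1*.

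*H19*, the noncoding RNA that shares its enhancers with the growth factor gene *Igf2*, had 52 counts in VhlhKO and 51 in Ctrl, or a ratio of 0.947 (0.631 to 1.42). *Igf2* itself had 3 counts in VhlhKO and 2 in Ctrl, no more than the 3 counts taken as the floor, so no fold is given. *Ins2* had 0 counts in both libraries. Low as it was, *H19* was therefore the better measured RNA of the pair. The receptor that clears IGF2, *Igf2r*, itself maternally expressed in mouse, had 5670 counts in VhlhKO and 4815 in Ctrl, or a ratio of 1.09 (1.05 to 1.14), and its antisense RNA *Airn* had 85 and 103. Genes beside *H19* were measured for *Mrpl23* (208 counts in VhlhKO, 171 in Ctrl), *Tnnt3* (113 and 127), *Lsp1* (25113 and 23629) and *Syt8* (22 and 16), with log2 ratios from -0.24 to 0.19.

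Of 5 measured genes that bind *Igf2* or *H19* RNA or act in the same fetal growth programme, none was past 2-fold and the median log2 ratio was -0.31. The RNA-binding proteins *Igf2bp3* (101 counts in VhlhKO, 148 in Ctrl) and *Igf2bp1* (254 and 323) had log2 ratios of -0.58 and -0.43. The chromatin proteins *Hmga2* (8837 counts in VhlhKO, 10152 in Ctrl) and *Hmga1* (8008 and 8345) had -0.31 and -0.17, and *Igf2bp2* had -0.09. All 5 ratios were below 1, as were 50.2% of the ratios of all measured genes.

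Among the growth inhibitors, *Cdkn1c*, which encodes the imprinted member of the CDK inhibitor family that holds cells in G1, had 80 counts in VhlhKO and 120 in Ctrl. Its ratio was 0.619 (0.461 to 0.829). It was a minor member of its family in these cells: *Cdkn1a* stood at 117 times its TPM in VhlhKO and 69.0 times in Ctrl, and *Cdkn1b* at 13.1 and 8.35 times. *Cdkn1c* is also a podocyte marker, and 30.7% of its exonic bases are shared with *Gm44732* on the opposite strand, which the counts may not separate because the strand setting of the counting is not given in the sources used here. Of the other podocyte markers, *Nphs1* (nephrin) reached 44 counts in VhlhKO and 77 in Ctrl (0.531, 0.358 to 0.779), *Ptpro* 13 and 1, and *Podxl* 5206 and 1240. The part of podocyte RNA in the value of *Cdkn1c* was not tested.

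The genes around *Cdkn1c* had ratios on either side of 1. *Kcnq1ot1*, the paternal noncoding RNA that silences this domain, had 468 counts in VhlhKO and 418 in Ctrl (1.04, 0.910 to 1.19). *Slc22a18*, a maternally expressed transporter gene next to *Cdkn1c*, had 69 counts in VhlhKO and 47 in Ctrl (1.36, 0.928 to 2.02). *Phlda2*, a growth-restraining gene of the same domain, was at 4 counts in VhlhKO and 5 in Ctrl, *Ascl2* at 2 and 1 and *Kcnq1* at 3 and 0. *Cd81*, *Tssc4*, *Nap1l4*, *Cars*, *Osbpl5*, *Tnfrsf22* and *Tnfrsf23*, with 1023 to 19705 counts per library, had log2 ratios from -0.07 to 0.14. Within 500 kb of the start of *Cdkn1c*, 14 genes were measured with a median log2 ratio of -0.02. The lowest, *Nadsyn1*, an enzyme of NAD synthesis, had 147 counts in VhlhKO and 180 in Ctrl (0.759, 0.606 to 0.949), an interval that meets that of *Cdkn1c*. Only *Tnfrsf26*, a TNF receptor family gene with 48 counts in VhlhKO and 11 in Ctrl, was past 2-fold.

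Of 13 cell cycle genes around *Cdkn1c* in function, all measured, none was past 2-fold and the median log2 ratio was -0.04. *Ccnd1*, the cyclin that starts G1 progression, had 44330 counts in VhlhKO and 25812 in Ctrl, with a log2 ratio of 0.67, the largest of the list. The proliferation genes *Ccna2* (3166 counts in VhlhKO, 3451 in Ctrl), *Mki67* (9650 and 10305) and *Pcna* (3985 and 4156) had -0.23, -0.20 and -0.17, and *Cdk2* had -0.17. *Cdkn1a* and *Cdkn1b* had log2 ratios of 0.08 and -0.04. The ratio of *Cdkn1c* was lower than that of either relative, with intervals that do not meet (0.461 to 0.829 for *Cdkn1c*, 0.916 to 1.03 for *Cdkn1b*).

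*Grb10* encodes an adaptor that binds the insulin and IGF1 receptors and restrains their signal. It reached 11417 counts in VhlhKO and 11972 in Ctrl, or a ratio of 0.886 (0.864 to 0.909), small in size but well determined by its counts. Its relatives diverged: *Grb14* had 309 counts in VhlhKO and 447 in Ctrl (0.642, 0.554 to 0.744), whereas *Grb7* had 221 and 165 (1.24, 1.01 to 1.53). *Grb10* was the main member of the family, at 29.2 times the TPM of *Grb14* in VhlhKO and 21.2 times in Ctrl. Of 13 measured genes of insulin and IGF receptor signalling none was past 2-fold, and the median log2 ratio was 0.07. *Igf1* (128 counts in VhlhKO, 68 in Ctrl) had the largest, 0.68, followed after *Grb14* by *Irs2*, a docking protein of both receptors (1115 and 765 counts), with 0.43. The receptors *Insr* (2480 counts in VhlhKO, 2181 in Ctrl) and *Igf1r* (10579 and 9617) had 0.08 and 0.03.

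Genes beside *Grb10* gave 1 of the 2 ratios past 2-fold among the 41 measured genes listed for the clusters. *Ddc*, which encodes aromatic amino acid decarboxylase and is known as an enzyme of the proximal tubule, had 5 counts in VhlhKO and 37 in Ctrl (0.126, 0.0385 to 0.320). Of the 6 measured proximal tubule markers 4 were at least 2-fold lower, as given above, whereas *Lrp2* (1528 counts in VhlhKO, 1041 in Ctrl) and *Cubn* (220 and 177) had ratios of 1.36 (1.26 to 1.48) and 1.15 (0.943 to 1.42), and the part of tubule RNA in the value of *Ddc* was not tested. *Cobl* (1758 counts in VhlhKO, 1793 in Ctrl), *Fignl1* (881 and 923) and *Ikzf1* (24 and 16) had log2 ratios of -0.13, -0.17 and 0.26, so *Cobl* and *Fignl1* were close to the -0.17 of *Grb10*.

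Among the zinc finger factors, *Peg3*, which encodes a large Krüppel-type protein known for roles in cell survival and maternal behaviour, was the most abundant imprinted growth gene. It reached 37883 counts in VhlhKO and 45907 in Ctrl, 0.110% and 0.144% of all counts, and a ratio of 0.767 (0.756 to 0.777). *Usp29*, whose start lies 0.147 kb from that of *Peg3* on the opposite strand, had 480 counts in VhlhKO and 633 in Ctrl (0.705, 0.624 to 0.795). *Zim1*, the neighbouring zinc finger gene that is expressed from the maternal copy, had 1029 counts in VhlhKO and 1459 in Ctrl (0.655, 0.604 to 0.710). All measured genes of the *Peg3* cluster were thus lower in VhlhKO, those of the paternal copy and that of the maternal copy. *Zim2* and *Zim3* had 0 counts in both libraries and *Zfp264* had 1 count in VhlhKO and 0 in Ctrl.

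Beyond the *Peg3* cluster ratios were closer to 1. The 9 other genes measured within 500 kb of its start, zinc finger genes and 1 predicted gene, had log2 ratios from -0.25 (*Gm3854*) to 0.33 (*Zfp667*). *Peg3* stood at 21.9 times the TPM of *Zim1* in VhlhKO and 18.7 times in Ctrl, and at 104.8 times that of *Usp29* in VhlhKO and 96.3 times in Ctrl. Relatives and binding partners of *Peg3* and *Plagl1* outside the cluster, *Plagl2* (1014 counts in VhlhKO, 1100 in Ctrl), *Siah1a* (786 and 809), *Traf2* (674 and 680) and *Plag1* (475 and 410), had log2 ratios from -0.22 to 0.10.

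*Plagl1*, a zinc finger factor that arrests the cell cycle and is known to regulate other imprinted genes in mouse, had the highest ratio among the 9 measured genes. It reached 2324 counts in VhlhKO and 1740 in Ctrl, or a ratio of 1.24 (1.17 to 1.32) and a log2 ratio of 0.31. The genes beside it, *Phactr2* (1711 counts in VhlhKO, 1565 in Ctrl), *Sf3b5* (1517 and 1350) and *Ltv1* (1260 and 1096), had ratios of 1.02, 1.04 and 1.07 with intervals that hold 1. Among imprinted genes known as its targets in mouse, *H19* had a ratio of 0.947 and *Cdkn1c* of 0.619, and *Dlk1* and *Igf2* were below the minimum.

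*Mest*, which encodes a membrane protein of the hydrolase fold found in mesodermal tissues and growing fat, had the lowest ratio of the set. It reached 270 counts in VhlhKO and 483 in Ctrl, or a ratio of 0.519 (0.446 to 0.604) and a log2 ratio of -0.90, just inside the 2-fold rule. Its antisense neighbour *Copg2*, a coat protein gene whose exons overlap 23.1% of the exonic bases of *Mest*, had 1546 counts in VhlhKO and 1386 in Ctrl (1.04, 0.963 to 1.12). The other measured gene of the cluster, *Cep41*, had 392 counts in VhlhKO and 361 in Ctrl (1.01, 0.872 to 1.17). *Mest* thus stood apart from its neighbours, and 9 genes measured within 500 kb of its start had a median log2 ratio of 0.01 and a lowest of -0.13. Per length *Mest* was at 0.227 of the TPM of *Copg2* in VhlhKO and 0.452 in Ctrl. If reads of *Copg2* were counted to *Mest*, their share is not known, since the strand setting of the counting is not given in the sources used here. *Klf14* and *Tsga13*, farther along the cluster, had 0 counts in both libraries.

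**Figure D4:**
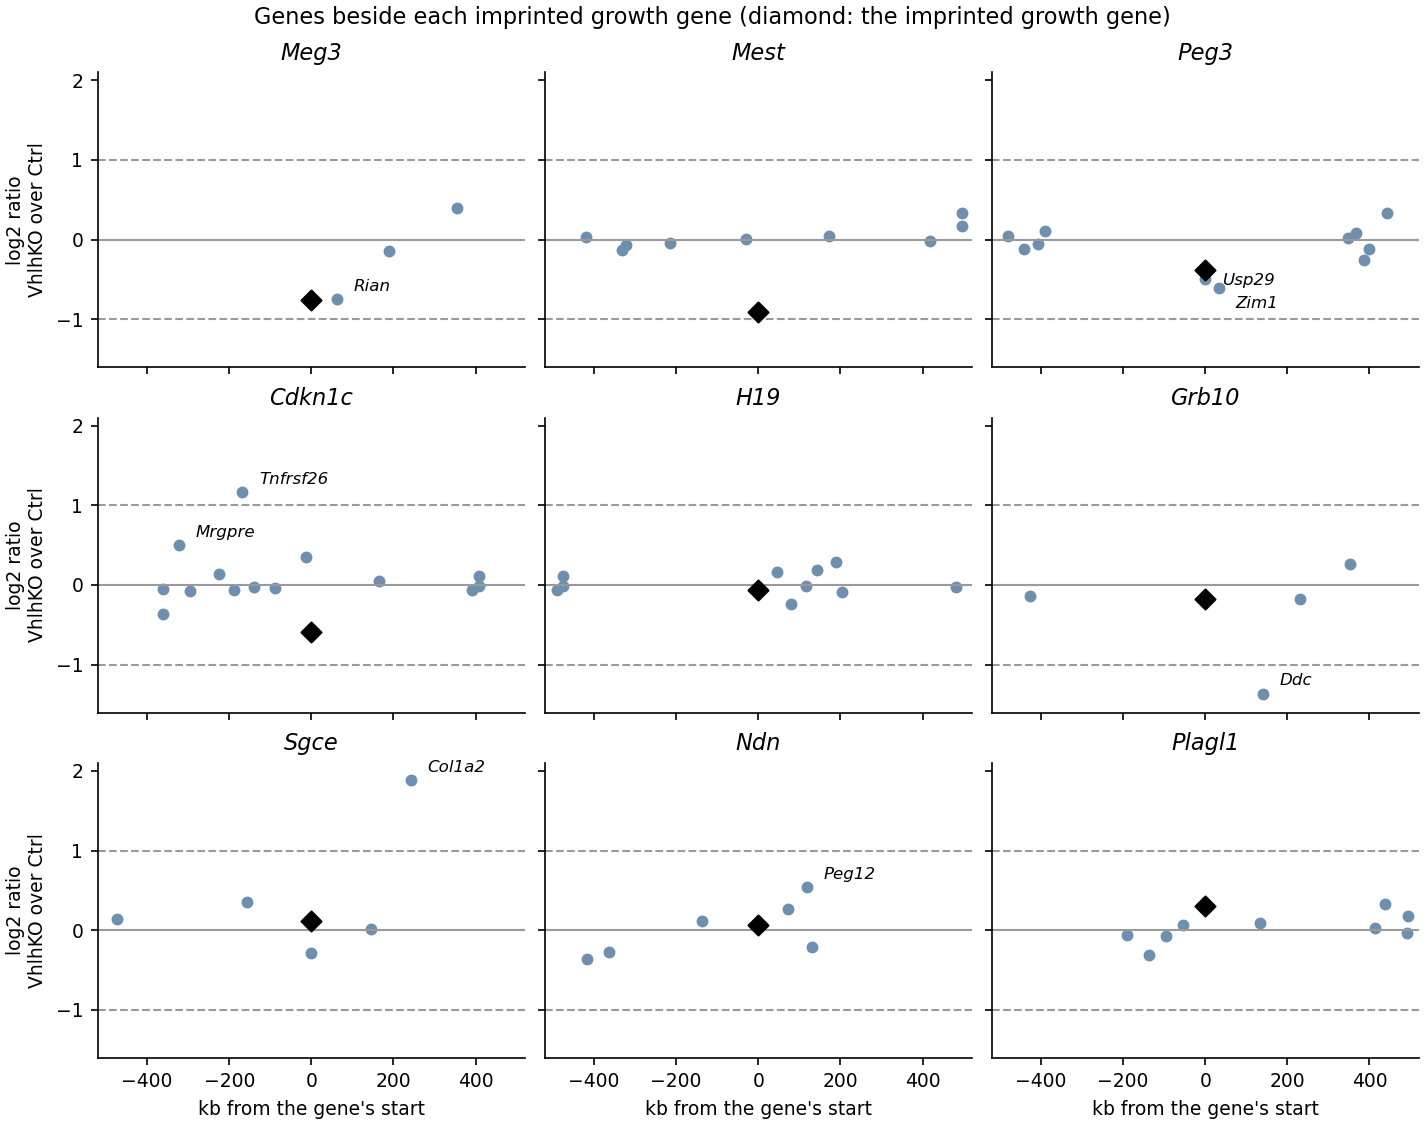
Log2 ratio of VhlhKO over Ctrl for genes with at least 20 counts within 500 kb of the start of each measured imprinted growth gene (black diamond at 0 kb), with distance in kb, positive in the direction of its transcription, and names for neighbours beyond 0.45. *Rian* lies beside *Meg3* at -0.75 and *Usp29* and *Zim1* beside *Peg3* at -0.49 and -0.60, whereas the neighbours of *Mest* lie between -0.13 and 0.33.

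*Ndn*, a MAGE family protein of the cluster deleted in human Prader-Willi syndrome that binds E2F factors and promotes exit from the cell cycle, had 3522 counts in VhlhKO and 3128 in Ctrl. Its ratio was 1.05 (0.997 to 1.10). Of its cluster, *Peg12* had the highest ratio, with 142 counts in VhlhKO and 86 in Ctrl (1.53, 1.17 to 2.03), and *Mkrn3* had 71 and 52 (1.27, 0.875 to 1.85). *Magel2*, the nearest relative of *Ndn*, was at 1 count in VhlhKO and 2 in Ctrl. *Snrpn* (141 counts in VhlhKO, 122 in Ctrl), *Snhg14* (276 and 260), *Ube3a* (5740 and 5585) and *Atp10a* (839 and 872) had log2 ratios from -0.16 to 0.09. Relatives and partners outside the cluster were as even: 7 measured genes, among them *Mageh1* (618 counts in VhlhKO, 524 in Ctrl), *Maged2* (5150 and 4480), *E2f1* (1147 and 1013) and *Magee1* (1680 and 1498), had log2 ratios from -0.03 to 0.13.

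*Sgce* encodes epsilon-sarcoglycan, a membrane protein of the dystrophin-glycoprotein complex outside striated muscle. It reached 673 counts in VhlhKO and 577 in Ctrl, or a ratio of 1.08 (0.968 to 1.21). *Peg10*, a gene derived from a retrotransposon which starts beside *Sgce* on the opposite strand, had 572 counts in VhlhKO and 649 in Ctrl (0.819, 0.731 to 0.918). The intervals of this divergent pair did not meet, unlike the pair of *Peg3* and *Usp29*, where both ratios lay below 1. *Sgce* stood at 0.739 of the TPM of *Peg10* in VhlhKO and 0.559 in Ctrl.

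Farther out in the *Sgce* cluster ratios varied. *Tfpi2*, a secreted protease inhibitor, had 105 counts in VhlhKO and 27 in Ctrl (3.61, 2.35 to 5.74), the other listed cluster gene past 2-fold. *Ppp1r9a* had 1251 counts in VhlhKO and 909 in Ctrl (1.28, 1.17 to 1.39), and *Casd1*, *Pon2* and *Pon3* had log2 ratios from 0.02 to 0.18. *Col1a2*, a collagen chain gene that is not imprinted and counts among the fibroblast markers, starts 242 kb from *Sgce* and had 10432 counts in VhlhKO and 2623 in Ctrl (3.70, 3.54 to 3.86). The ratio of *Sgce*, 1.08, was far below that of either gene. Of 10 measured partners in the dystrophin-glycoprotein complex none was past 2-fold, with a median log2 ratio of 0.12. *Sgcd* (75 counts in VhlhKO, 47 in Ctrl) had 0.44, *Dtnb* (1103 and 1324) had -0.36, *Dtna* (1399 and 1053) had 0.30, *Sspn* (2797 and 2204) had 0.24 and *Dag1*, the core dystroglycan (33761 and 28891), had 0.12.

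The imprinted genes were also set beside the rest of their clusters and other imprinted genes. Of 61 genes listed for the clusters, 41 were measured, with a median log2 ratio of 0.01, 1 higher (*Tfpi2*) and 1 lower (*Ddc*) past 2-fold. *Tnfrsf26*, past 2-fold beside *Cdkn1c*, was not on the list. Of 26 further imprinted genes elsewhere in the genome, several of them imprinted only in placenta or brain, 21 were measured with a median of 0.00071 and none past 2-fold. At 1.5-fold 3 of these were lower, *Slc38a4*, an amino acid transporter (23 counts in VhlhKO, 51 in Ctrl), *Nnat*, which encodes a small membrane proteolipid (191 and 320), and *Zdbf2* (63 and 107), with log2 ratios of -0.84, -0.80 and -0.72. *Gatm*, a creatine synthesis enzyme that is abundant in kidney, was higher at 1.5-fold with 689 counts in VhlhKO and 385 in Ctrl (0.71).

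The factors that keep imprints were measured as well, since they read or copy the methylation at control regions. Of 11 measured, 0 were past 2-fold, the median log2 ratio was -0.14 and 8 ratios were below 1, beside 50.2% of those of all measured genes. Among all measured genes, which were not matched for counts, the counting interval lay below 1 for 17.3%. Of the 11 factors it lay below 1 for 5 and held 1 for 5. It lay above 1 for *Zfp445* alone (5404 counts in VhlhKO, 4807 in Ctrl), with a log2 ratio of 0.06. *Uhrf1* (2425 counts in VhlhKO, 2772 in Ctrl) and *Dnmt1* (3677 and 4110), which copy methylation at replication, had -0.30 and -0.27, and the zinc finger protein *Zfp57* (916 and 978), which binds methylated imprints, had -0.20. *Tet1*, which removes methylation (161 counts in VhlhKO, 173 in Ctrl), had -0.19, with an interval that holds 1 (0.693 to 1.08). The proliferation genes above had values of like size, and a link between the 2 groups of genes was not tested. Of 12 Notch receptors, ligands and targets, the family to which *Dlk1* is related, none was past 2-fold and the median was -0.0040. *Hey1*, a target gene (274 counts in VhlhKO, 433 in Ctrl), had -0.73, *Dlk2*, the nearest relative of *Dlk1* (74 and 36), had 0.71, *Dll1* (70 and 39) had 0.56 and *Notch4* (204 and 130) had 0.49.

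**Figure D5:**
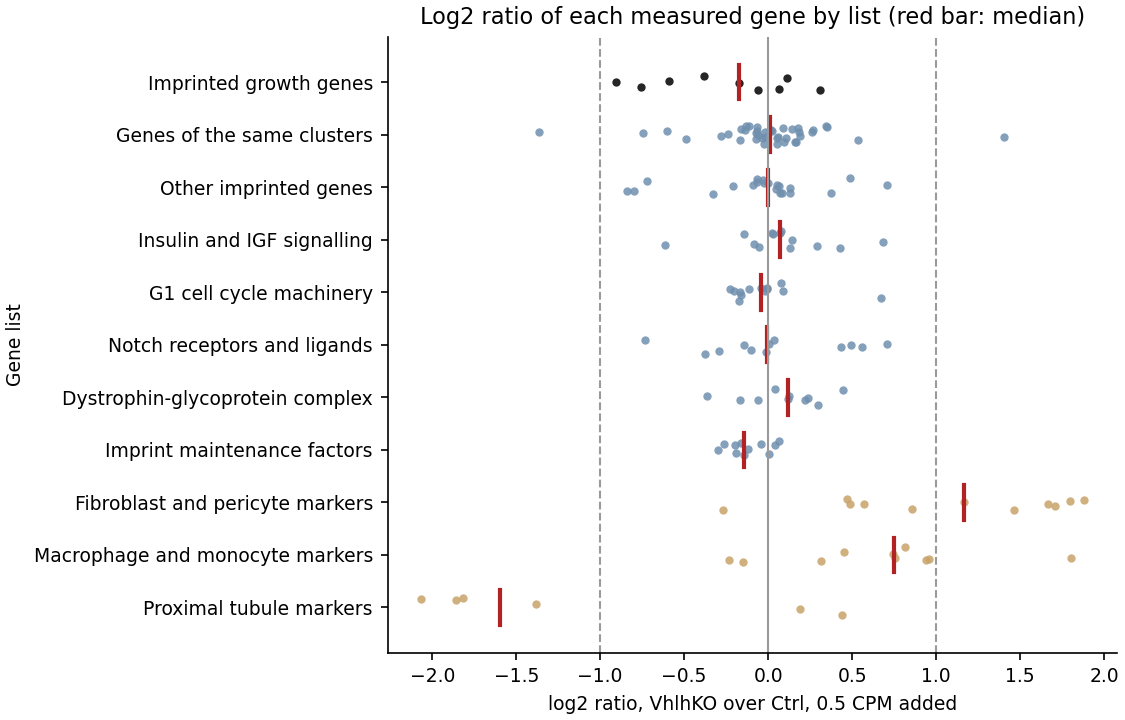
Log2 ratio of VhlhKO over Ctrl (horizontal axis) for each measured gene of 11 lists (rows), with the median of a list as a red bar, equality as a solid line and 2-fold as dashed lines. The imprinted growth genes (black, median -0.17), the genes of their clusters (median 0.01) and other imprinted genes lie around equality, while the fibroblast markers (median 1.17) and proximal tubule markers (4 of 6 past 2-fold lower) lie apart from it.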

How the data were processed

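RNA of sorted Pdpn+ kidney cells was measured in 1 pooled library of VhlhKO and 1 of Ctrl. The authors selected poly(A) RNA, made strand-specific libraries and sequenced both fragment ends on a NovaSeq. The submitters' processing notes list STAR, featureCounts, Subread, cutadapt, bcl2fastq, FastQC, MultiQC and DESeq2, and the build mm10 (GRCm38). Tool versions, annotation release, strand setting and the gene lengths behind TPM were not given in the sources used here. Each gene has unnormalized counts in the table deposited by the authors and, computed from gene length and library total, TPM. Columns of log2 fold change and p-value in the deposited table hold the authors' own comparison of VhlhKO with Ctrl and were left aside.

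Counts were scaled by TMM in edgeR 4.0.16 (R 4.3.3), with factors of 0.997 for VhlhKO and 1.003 for Ctrl. The added 0.5 CPM equals 17.2 counts in VhlhKO and 16.0 in Ctrl, so it pulls the log2 ratios of low genes toward 0. Ratios without it carry a 95% exact conditional interval (scipy 1.17.1). Genes with at least 20 counts in 1 library were compared, and levels of different genes were compared only by TPM. No test across libraries was possible. The steps were tested on simulated counts. Alternatives were the authors' TPM, total counts, size factors from DESeq2 1.42.0, other added values, count minimums and fold sizes.

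The 30 gene lists, that of the imprinted growth genes among them, were chosen with earlier results of these data known. *Dlk2* was taken off the list of other imprinted genes after its values were seen, because it is listed as a relative of *Dlk1*. Named were the 10 genes and every measured gene listed for their clusters, with *Igf2* and *Igf2r*. From each other list up to 4 genes whose log2 ratio lay farthest from 0 and those past 2-fold were named. The defining and gate markers and *Vhl* were named too. Others, such as *Tnfrsf26*, *Nadsyn1*, *Lrp2*, *Cubn*, *Col1a2*, *Airn*, *Pcna*, *Cdkn1a*, *Dag1*, *Hoxb7* and genes below the minimum, were named after their values were seen. So were *Cspg4*, *Csf1r*, *Cd14* and *Zfp445*. Of the marker lists, 2 genes are not reported here and were left out of the counts and sums. Symbols missing from the table were matched through RefSeq synonyms, and 55144 of 55471 gene IDs were in GENCODE M21.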

Additional observations from a re-analysis of the deposited data

How the results depend on the processing

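Over the alternatives that could be computed, no log2 ratio of an imprinted growth gene changed sign, and 61 of 63 values stayed inside the gene's counting interval. A change of the count minimum cannot alter a gene's own ratio, so the values under other minimums repeat the main value by construction. For *Dlk1* the only alternative was of this kind. With 5 CPM added, *Mest* moved to -0.65 and *Cdkn1c* to -0.26. The median ran from -0.28 (at least 100 counts) to -0.12 (no minimum, which brings in *Dlk1*). No imprinted growth gene was past 2-fold in either direction under any scaling, unit, added value or minimum, and 3 were lower at 1.5-fold, or 2 with DESeq2 size factors (*Cdkn1c* at -0.58) or with 5 CPM added. Over all genes, 261 were at least 2-fold higher and 80 lower. These counts were 394 and 139 with the authors' TPM, 435 and 151 with 0.05 CPM added, 66 and 18 with 5 CPM added, 725 and 278 at 1.5-fold, and 63 and 25 at 3-fold, and 46 were lower with at least 100 counts. No paired analysis was possible because each genotype has 1 library, and no library could be left out for the same reason. Depth limits *Dlk1*, *H19* and *Cdkn1c*, whose counting intervals are the widest.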
